A study of Mus musculus with 10 samples.

Results

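Lipolysis enzymes and their regulators were followed as 10 genes chosen by name from the 27267 genes listed for interscapular brown adipose tissue (iBAT): the lipases *Pnpla2*, *Pnpla3*, *Lipe*, *Mgll*, *Ces1d* and *Ces1f*, the lipase coactivator *Abhd5*, the lipase inhibitor *G0s2*, the phosphodiesterase *Pde3b* and the glycerol channel *Aqp7*. All 10 were listed, and all 10 had a mean normalized count of at least 10, as did 13714 genes in all. RNA was sequenced from the iBAT of C57BL/6 mice labelled as male and 4 weeks old, 5 of them wild type (WT) and 5 *Mgp*-KO, all on standard chow and a regular light cycle. *Mgp* encodes matrix Gla protein, an inhibitor of bone morphogenetic proteins, and it was deleted in the whole animal, so the model cannot assign a difference to one cell type of the tissue. The methods give 5 pairs of male mice as the source of the RNA.

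In fat cells, stored triglyceride is cut in steps at the surface of the lipid droplet. Adipose triglyceride lipase (*Pnpla2*) removes the first fatty acid with the help of its coactivator (*Abhd5*) and is held back by its inhibitor (*G0s2*), hormone-sensitive lipase (*Lipe*) acts on the diglyceride, and monoglyceride lipase (*Mgll*) releases the last fatty acid from glycerol, which leaves through the channel *Aqp7*. Noradrenaline starts the process through cyclic AMP, which *Pde3b* degrades under insulin. In brown fat the fatty acids fuel heat production and also open the uncoupling protein of the mitochondria.

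The reads of some libraries went against their labels. *Mgp* (chromosome 6, bases 136872435 to 136875823 of GRCm38, reverse strand) had 0, 1 and 1 reads in *Mgp*-KO 1 to 3, but 309 and 282 in *Mgp*-KO 4 and 5. As normalized counts these were 500.2 and 331, against 489 in WT 2, 466 in WT 3 and up to 1146 in WT, so *Mgp*-KO 4 lay inside the WT range. The group is therefore called the libraries labelled *Mgp*-KO. WT 2, labelled male, had a normalized count of 5094 for *Xist* and a sum of 3.74 over 4 Y-linked genes, where the other 9 libraries had 0.754 to 44.0 and 1457 to 7035. Replicates 1 to 3 of both groups held 19616366 to 22252260 reads on genes, 0.771% to 1.72% of them on mitochondrial ribosomal RNA, and replicates 4 and 5 held 9253793 to 13281873 reads with 6.50% to 16.7%. The fold change of each member is given over all 10 libraries, with a model term for these sets of replicates, and within each set. A bulk library cannot tell fewer cells of a type from less RNA per cell.

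The promoters of 4 genes described most closely are shown first: the inhibitor *G0s2*, its lipase *Pnpla2*, which did not pass in limma, and *Pnpla3* and *Mgll*, which like *G0s2* passed in limma within replicates 1 to 3 and not over all libraries. Each runs 300 bases, from 250 before to 50 after the start of the gene, 5′ to 3′ on the strand of the gene, from RefSeq on GRCm38.p6. The table matched 7 of the 10 genes with 10 promoters and had no entry for *Ces1d*, *Ces1f* and *Pde3b*. Capitals mark the motifs found. *G0s2* lies at chr1:193273139-193273438 on the reverse strand, *Pnpla2* at chr7:141454938-141455237, *Pnpla3* at chr15:84167566-84167865 and *Mgll* at chr6:88724162-88724461, the latter 3 on the forward strand.
G0s2: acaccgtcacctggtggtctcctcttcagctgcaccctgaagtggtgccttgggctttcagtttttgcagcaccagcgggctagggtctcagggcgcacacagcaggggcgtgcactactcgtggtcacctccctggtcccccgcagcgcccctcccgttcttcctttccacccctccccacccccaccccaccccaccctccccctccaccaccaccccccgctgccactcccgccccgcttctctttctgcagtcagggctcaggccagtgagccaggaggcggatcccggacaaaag
Pnpla2: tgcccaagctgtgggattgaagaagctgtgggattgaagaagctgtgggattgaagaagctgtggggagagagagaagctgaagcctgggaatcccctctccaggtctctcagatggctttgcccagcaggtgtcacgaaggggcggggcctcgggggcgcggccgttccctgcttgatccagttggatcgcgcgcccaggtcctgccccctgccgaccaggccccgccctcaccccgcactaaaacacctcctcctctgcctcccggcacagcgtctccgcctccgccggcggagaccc
Pnpla3: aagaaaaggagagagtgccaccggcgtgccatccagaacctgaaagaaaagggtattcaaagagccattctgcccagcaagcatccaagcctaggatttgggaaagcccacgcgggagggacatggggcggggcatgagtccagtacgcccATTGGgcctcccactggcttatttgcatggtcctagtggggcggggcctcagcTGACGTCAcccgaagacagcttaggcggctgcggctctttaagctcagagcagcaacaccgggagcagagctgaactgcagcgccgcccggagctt
Mgll: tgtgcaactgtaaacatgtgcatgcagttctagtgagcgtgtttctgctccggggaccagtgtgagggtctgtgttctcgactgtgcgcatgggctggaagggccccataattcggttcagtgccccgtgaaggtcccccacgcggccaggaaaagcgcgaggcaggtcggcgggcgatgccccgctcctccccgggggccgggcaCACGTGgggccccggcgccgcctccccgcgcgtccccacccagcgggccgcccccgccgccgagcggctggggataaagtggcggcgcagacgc

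Exact letters of 6 motifs, none of which contains another, were searched on both strands of the 32851 promoters of this length. The cyclic AMP element, spelled TGACGTCA, occurred in 1.79% of them, and *Pnpla3* held it 46 bases before its start. *Pnpla3* also held a CCAAT box on the opposite strand, 99 bases before its start, a match found in 37.4% of all promoters. The E-box, spelled CACGTG and present in 7.15%, lay 44 bases before the start of *Mgll* and 155 bases before that of a *Lipe* promoter. The nuclear receptor site, spelled AGGTCA and present in 16.3%, lay 69 bases before the start of *Abhd5* and in both promoters of *Aqp7*. The TATA box, spelled TATAAA and present in 13.6%, was found in no promoter of the 7 genes. The same held for the sterol element, spelled TCACNCCAC and present in 1.24%. The promoters of *G0s2* and *Pnpla2* shown here held none of the 6 motifs. A match is a string of letters in this window, and its use by a factor was not measured.

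Over all 10 libraries the members leaned lower in the libraries labelled *Mgp*-KO, with 7 of 10 log2 fold changes below 0 and a median of -0.57, where 47.3% of all tested genes were below 0 and the median was 0.03. None of the 10 passed an adjusted p of 0.05 in limma, although 4 (*Pnpla3*, *Abhd5*, *G0s2* and *Ces1f*) had an unadjusted p under 0.05, as did 10.4% of tested genes. In this fit 0.0656% of tested genes passed. A two-sided exact permutation test of each member, not adjusted, gave p from 0.00794 to 0.0317 for the same 4 genes. For *Pnpla2*, *Lipe*, *Mgll*, *Pde3b*, *Ces1d* and *Aqp7* it gave p from 0.222 to 0.937. edgeR called 0 of the members and 0.0219% of tested genes, and DESeq2 called 1 member, *G0s2*, and 2.71%. With the set term, limma called 2 of the 10, *G0s2* and *Ces1f*, both lower, against 2.36% of tested genes called in either direction and 1.54% called lower. The same model called these 2 in edgeR, against 2.49%, and *Pnpla3* and *Abhd5* as well in DESeq2, against 8.72%. Without *Mgp*-KO 4 it called 4 in limma, *Mgll*, *Abhd5*, *G0s2* and *Ces1f*, all lower, against 4.94%. Restricted to replicates 1 to 3, limma called 3, *Pnpla3*, *Mgll* and *G0s2*, all lower, against 3.54% in either direction and 1.65% lower, and DESeq2 called 5, against 10%, adding *Ces1f* and, on the higher side, *Pnpla2*. Leaving out the libraries whose reads go against a label (*Mgp*-KO 4 and 5 and WT 2) left 0 members past the threshold in limma, against 0.707% of tested genes. That fit had no set term and kept *Mgp*-KO libraries of replicates 1 to 3 only, against WT libraries of both sets. Its values therefore mix genotype with set. With an unadjusted p under 0.05 there were 6, against 17.6%, namely *Pnpla2* on the higher side and *Pnpla3*, *Mgll*, *Abhd5*, *G0s2* and *Ces1f* on the lower. Within replicates 4 and 5, with 2 libraries a group, it called 0 members and 0% of tested genes, and 3 members (*Abhd5*, *G0s2* and *Ces1f*) had an unadjusted p under 0.05, against 6.23% of tested genes.

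**Figure D1:**
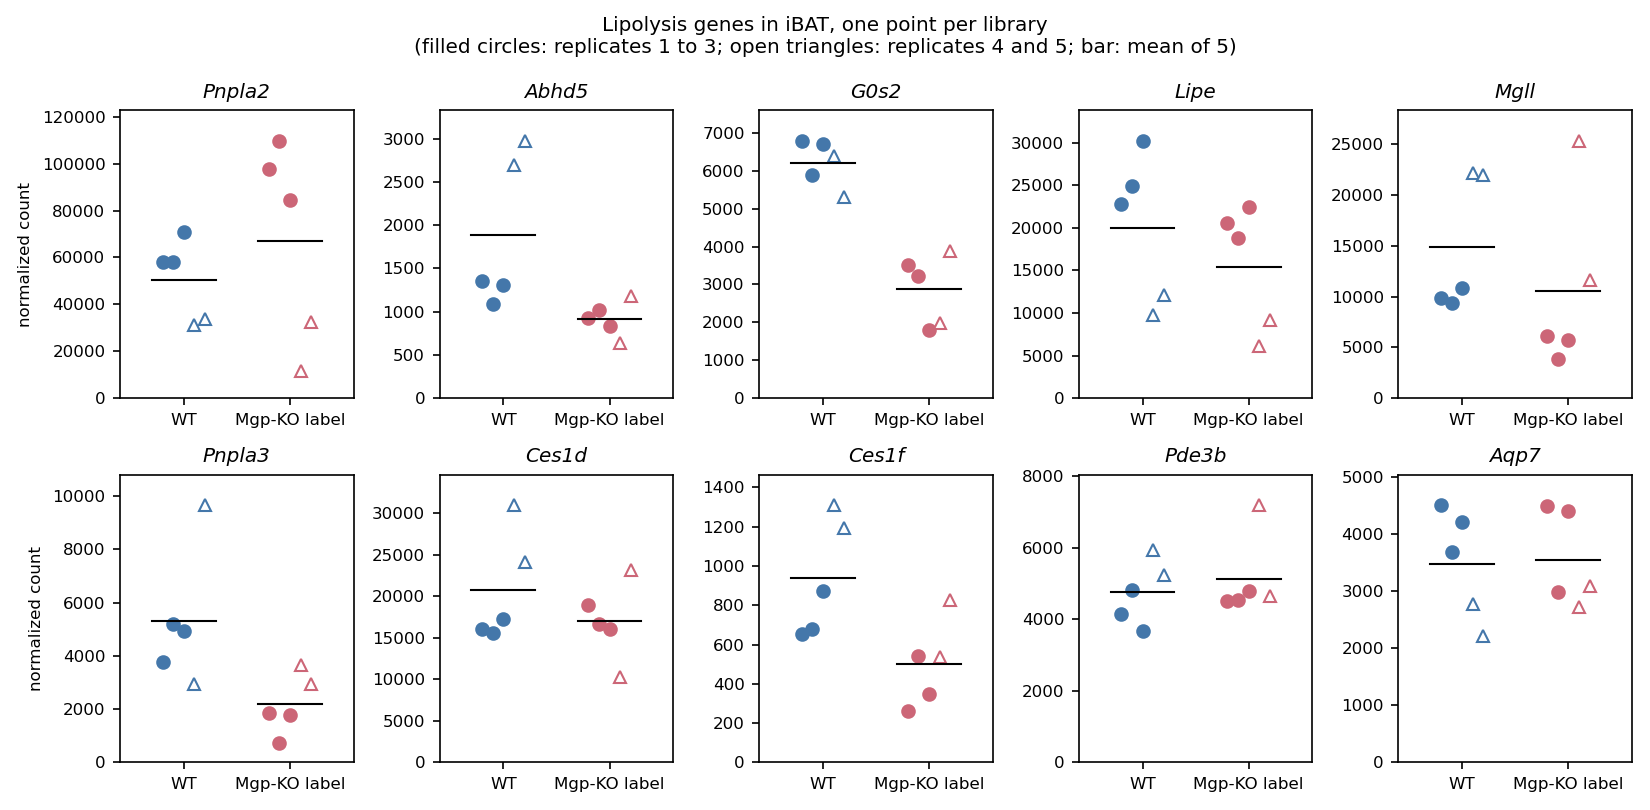
Normalized counts (vertical axes from 0, one scale per gene) of the 10 genes in each library, WT in blue and the libraries labelled Mgp-KO in red, with circles for replicates 1 to 3, open triangles for replicates 4 and 5 and a bar at the mean of 5. The 5 red points of G0s2 lie below all blue ones, from 1790.1 to 3874, and the triangles of Pnpla2 and Lipe lie below the circles in both groups.

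*G0s2* was the member whose groups did not overlap. Its gene spans bases 193272161 to 193273217 of chromosome 1, on the reverse strand, and encodes the small protein that binds *Pnpla2* and blocks it. Its normalized counts were 6786, 5887, 6709, 6401 and 5321 in WT 1 to 5 and 3509, 3212, 1790.1, 1985 and 3874 in those labelled *Mgp*-KO 1 to 5. Every library labelled *Mgp*-KO lay below every WT library, a full separation that 2.11% of tested genes showed on the lower side and 3.5% on either side. The means were 6221 ± 615 and 2874 ± 933 (SD, n = 5 each), so the libraries labelled *Mgp*-KO held 46.2% of the WT level. The log2 fold change was -1.18, with a standard error of 0.24 and an adjusted p of 0.0747 in limma over all libraries, and 0.23 and 0.0252 with the set term. The two-sided exact permutation test gave p = 0.00794, the smallest p that this exact test can give for 5 against 5. The value was similar in both sets, -1.24 within replicates 1 to 3 (adjusted p = 0.0423 in limma) and -1.07 within replicates 4 and 5 (adjusted p = 0.679 in limma), and these differed by 0.17 with a standard error of 0.48 (adjusted p = 0.898 in limma). *G0s2* was also the member with the smallest effect of the set itself, -0.06 on the log2 scale (adjusted p = 0.864 in limma).

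*Pnpla2*, on the forward strand of chromosome 7 from 141455198 to 141460743, encodes the lipase that *G0s2* restrains. Its normalized counts were 57989.5, 57891, 71051, 31251 and 33532 in WT 1 to 5, and 97853, 109631, 84658, 11595 and 32409.7 in those labelled *Mgp*-KO 1 to 5. In replicates 1 to 3 all libraries labelled *Mgp*-KO were above all WT libraries, as for 15.5% of tested genes, whereas in replicates 4 and 5 the values ran lower in both groups and overlapped. The means were 50343 ± 17258 in WT and 67229 ± 42857 in the libraries labelled *Mgp*-KO (SD, n = 5 each), and the log2 fold change of 0.09 was well within its standard error of 0.58 (adjusted p = 0.972 in limma, 0.906 with the set term). Restricted to replicates 1 to 3 it was 0.64 with a standard error of 0.20 (adjusted p = 0.121 in limma, 0.00365 in DESeq2), and within replicates 4 and 5 it was -0.74 with a standard error of 0.68 (adjusted p = 0.738 in limma). Without *Mgp*-KO 4 and 5 and WT 2, a choice that mixes genotype with set, it was 1.09 with a standard error of 0.34 (adjusted p = 0.170 in limma). Over all libraries it was 0.41 in DESeq2 (adjusted p = 0.780). The difference of the effects within the sets was -1.38 with a standard error of 0.58, unadjusted p = 0.0377 and adjusted p = 0.470 in limma, and without the library labelled *Mgp*-KO 4 it came to -0.64 (adjusted p = 0.698). That library had the lowest count of *Pnpla2*, the fewest reads (9253793) and the largest share of mitochondrial ribosomal RNA (16.7%), whose part in the value was not tested.

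*Abhd5*, the coactivator of *Pnpla2*, lies on the forward strand of chromosome 9 from 122351608 to 122381524. Its normalized counts were 1352, 1084, 1310.0, 2697 and 2971 in WT 1 to 5 and 926, 1014, 838, 638 and 1176 in those labelled *Mgp*-KO 1 to 5. Only *Mgp*-KO 5 reached into the WT range, and the WT libraries 4 and 5 stood above all others. The means were 1883 ± 879.6 and 918 ± 201 (SD, n = 5 each), which is -0.94 on the log2 scale with a standard error of 0.30 (adjusted p = 0.271 in limma, 0.0758 with the set term). The two-sided exact permutation test gave p = 0.0159. The effect was -0.43 in the earlier and -1.71 in the later set of replicates, a difference of -1.28 with a standard error of 0.35, unadjusted p = 0.00444 and adjusted p = 0.455 in limma, and without *Mgp*-KO 4 it was -0.84 (adjusted p = 0.531). An antisense gene overlaps 15.95% of the exon bases of *Abhd5*, and the strand setting of the counting was not given, so the reads of both may be mixed there.

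The lipases of the later steps were lower on average without passing over all libraries. *Lipe*, on the reverse strand of chromosome 7 (bases 25379527 to 25398710), had normalized counts of 22790, 24939, 30195, 9782 and 12132 in WT 1 to 5 and 20560.5, 18828, 22473.5, 6129 and 9160.4 in those labelled *Mgp*-KO 1 to 5. Within each set every library labelled *Mgp*-KO lay below every WT library, which 15.1% of tested genes showed for replicates 1 to 3 and 21.3% for replicates 4 and 5. The log2 fold change of *Lipe* was -0.41 with a standard error of 0.44 over all libraries and 0.18 with the set term (adjusted p = 0.801 and 0.249 in limma), -0.33 in replicates 1 to 3 and -0.54 in replicates 4 and 5 alone. It was -0.12 without *Mgp*-KO 4, -0.23 without WT 3 and -0.64 without WT 4. Without *Mgp*-KO 4 and 5 and WT 2, a choice that mixes genotype with set, it was 0.28. An antisense gene overlaps 15.6% of its exon bases.

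*Mgll*, on the forward strand of chromosome 6 from 88724412 to 88828360, had normalized counts of 9883, 9398, 10809.6, 22222 and 21987 in WT 1 to 5 and 6131, 3896, 5744, 25329 and 11655 in those labelled *Mgp*-KO 1 to 5. It fell within replicates 1 to 3 to 52.4% of the WT mean, a log2 fold change of -0.96 with a standard error of 0.19 (adjusted p = 0.0395 in limma). In replicates 4 and 5, where *Mgp*-KO 4 was the highest of all 10 libraries, it came to -0.36 with a standard error of 0.58 (adjusted p = 0.845 in limma). Over all libraries it was -0.72 with a standard error of 0.48 (adjusted p = 0.648 in limma, 0.135 with the set term). Without *Mgp*-KO 4 it was -1.12 (adjusted p = 0.221 in limma), and -0.95 with the set term (adjusted p = 0.00969 in limma). Without *Mgp*-KO 4 and 5 and WT 2, a choice that mixes genotype with set, it was -1.55 (adjusted p = 0.0883 in limma).

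*Pnpla3*, on the forward strand of chromosome 15 from 84167837 to 84187236, is a relative of *Pnpla2* that rises with lipogenesis and binds *Abhd5*. Its normalized counts were 3769, 5213.5, 4917, 2951 and 9651 in WT 1 to 5 and 1863, 746, 1793, 3644 and 2942.5 in those labelled *Mgp*-KO 1 to 5. The groups were apart on the lower side in replicates 1 to 3, as for 15.1% of tested genes, with *Mgp*-KO 2 the lowest. They overlapped in replicates 4 and 5 through WT 4. *Pnpla3* fell within replicates 1 to 3 to 31.7% of the WT mean, with a log2 fold change of -1.76 and a standard error of 0.34 (adjusted p = 0.0404 in limma), the largest change of a member there. Within replicates 4 and 5 it was -0.70 with a standard error of 0.58 (adjusted p = 0.718 in limma). The value over all libraries was -1.34 with a standard error of 0.42 (adjusted p = 0.265 in limma, 0.0802 with the set term), and the two-sided exact permutation test gave p = 0.0159.

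The carboxylesterases *Ces1d* and *Ces1f*, lipases outside the classical cascade, lie near each other on chromosome 8, at bases 93166068 to 93197838 and 93256236 to 93279747 of the reverse strand. *Ces1f* had normalized counts of 654, 678, 871, 1307 and 1192 in WT 1 to 5 and 262, 541, 347, 536 and 824 in those labelled *Mgp*-KO 1 to 5. The groups were apart on the lower side within each set, as for 15.1% of tested genes in replicates 1 to 3 and 21.3% in replicates 4 and 5. Over all libraries *Mgp*-KO 5 reached into the WT range. With the set term *Ces1f* fell, with a log2 fold change of -0.96 and a standard error of 0.20 (adjusted p = 0.0352 in limma), and the effect was -0.99 and -0.91 within the sets. Without the term the standard error was 0.32 and the adjusted p was 0.294, and the two-sided exact permutation test gave p = 0.0317.

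*Ces1d* had normalized counts of 16066, 15557, 17261, 30949 and 24124 in WT 1 to 5 and 18920.5, 16733, 16036, 10344 and 23205 in those labelled *Mgp*-KO 1 to 5. The groups overlapped in replicates 1 to 3, whereas the libraries labelled *Mgp*-KO 4 and 5 were both below WT 4 and 5, as for 21.3% of tested genes. Its log2 fold change was -0.28 with a standard error of 0.28 (adjusted p = 0.790 in limma, 0.570 with the set term), 0.08 for replicates 1 to 3 and -0.82 for replicates 4 and 5. It was -0.12 without WT 4 and -0.11 without *Mgp*-KO 4, where the set term gave -0.018. Of the stretches of 50 bases, the read length, in their transcripts, 1.08% in *Ces1d* and 0.903% in *Ces1f* also occurred in transcripts of other genes, so few reads could be split between the esterases.

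*Pde3b* and *Aqp7* had log2 fold changes near 0. *Pde3b*, on the forward strand of chromosome 7 from 114415281 to 114539251, had normalized counts of 4140.5, 4829, 3669, 5942 and 5254 in WT 1 to 5 and 4524, 4529, 4786, 7187 and 4667 in those labelled *Mgp*-KO 1 to 5. Its groups overlapped, and the log2 fold change was 0.10 with a standard error of 0.21 (adjusted p = 0.901 in limma, 0.736 with the set term), with 0.14 for replicates 1 to 3 alone and 0.05 for replicates 4 and 5. *Aqp7*, on the reverse strand of chromosome 4 (bases 41033074 to 41048139), had normalized counts of 4507, 3698, 4220.5, 2786 and 2220.2 in WT 1 to 5 and 4503, 2990.3, 4401, 2728 and 3101 in those labelled *Mgp*-KO 1 to 5. Its groups overlapped as well, and its log2 fold change was 0.04 with a standard error of 0.25 (adjusted p = 0.969 in limma, 0.908 with the set term), with -0.08 for replicates 1 to 3 alone and 0.23 for replicates 4 and 5.

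**Figure D2:**
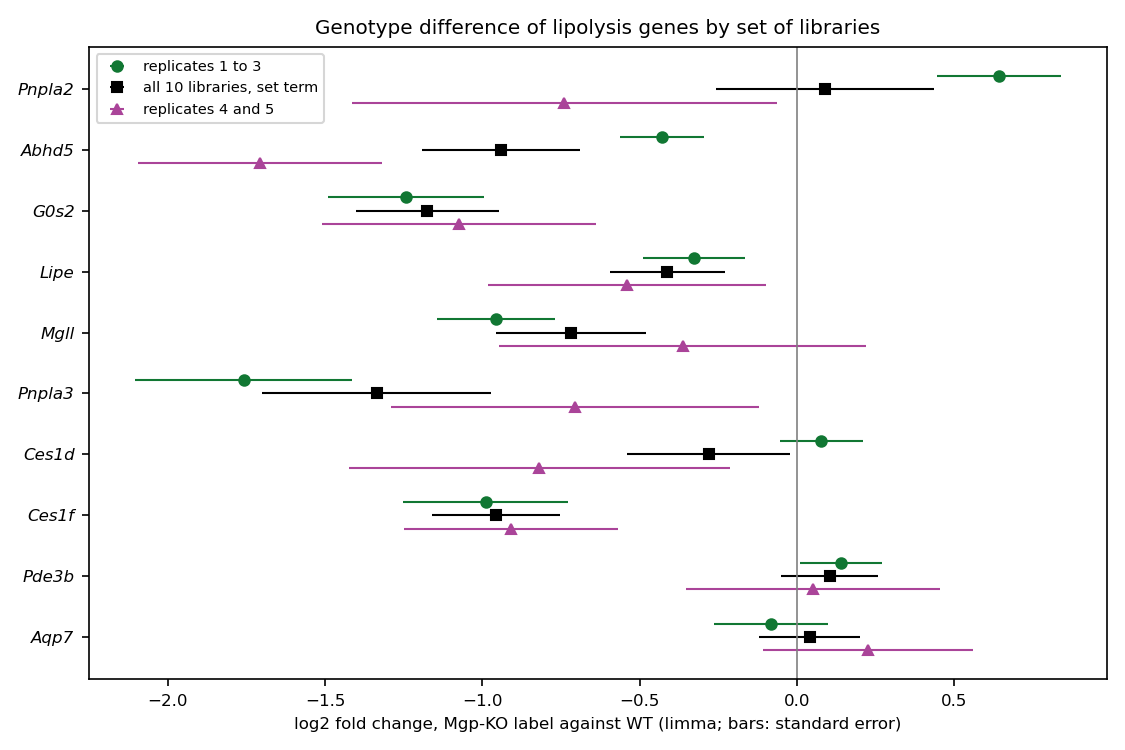
Log2 fold change of each gene in limma, libraries labelled Mgp-KO against WT, on the horizontal axis, with standard errors as bars, within replicates 1 to 3 (circles), over all 10 libraries with the set term (squares) and within replicates 4 and 5 (triangles). G0s2 and Ces1f lie between -1.24 and -0.91 in all of them, while Pnpla2 runs from 0.64 in replicates 1 to 3 to -0.74 in replicates 4 and 5.

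Several members differed between the sets of replicates. With genotype in the model, 5 of the 10 differed between replicates 4 and 5 and replicates 1 to 3 in limma, against 38.2% of tested genes. Replicates 4 and 5 were lower for *Pnpla2*, with a log2 difference of -1.63 (adjusted p = 0.00456 in limma), for *Lipe* with -1.35 (adjusted p = 3.75e-04) and for *Aqp7* with -0.58 (adjusted p = 0.0176). They were higher for *Mgll*, with a log2 difference of 1.44 (adjusted p = 0.00115 in limma), and for *Ces1f* with 0.82 (adjusted p = 0.00991). For *Pnpla2*, *Lipe* and *Mgll* the sets did not overlap at all, as for 25.2% of tested genes. The genotype effect itself differed between the sets for 0 of the 10 members in limma, against 0.00729% of tested genes, of which *Mgp* was the 1 gene. An unadjusted p under 0.05 for this difference was found for 2 members, *Pnpla2* and *Abhd5*, and for 10.3% of tested genes.

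Ratios within a library do not depend on how libraries are scaled, and 3 were compared on levels per kb of exon. The ratio of the lipase *Pnpla2* to its inhibitor *G0s2* was 2.46, 2.84, 3.05, 1.41 and 1.82 in WT 1 to 5 and 8.04, 9.84, 13.6, 1.68 and 2.41 in those labelled *Mgp*-KO 1 to 5. The ratio in *Mgp*-KO 1 to 3 stood apart from that of every other library. The difference of the group means was 1.27 on the log2 scale (two-sided exact permutation test, p = 0.119, adjusted p = 0.179 over the 3 ratios), with 1.89 within replicates 1 to 3 (p = 0.1, the lowest value an exact test of 3 against 3 can give) and 0.33 within replicates 4 and 5. Leaving out 1 library at a time gave a p of 0.0317 without *Mgp*-KO 4, where the difference was 1.68, and 0.0635 to 0.222 without any of the other 9, in the same exact permutation test.

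The ratio of *Lipe* to *Pnpla2*, the lipase of the second step against that of the first, was 0.202, 0.221, 0.218, 0.161 and 0.186 in WT 1 to 5 and 0.108, 0.0881, 0.136, 0.271 and 0.145 in those labelled *Mgp*-KO 1 to 5. *Mgp*-KO 4 was the highest of all libraries and the other 4 were below every WT library. The difference was -0.50 on the log2 scale (two-sided exact permutation test, p = 0.119, adjusted p = 0.179 over the 3 ratios), with -0.97 for replicates 1 to 3 alone and 0.20 for replicates 4 and 5. Without *Mgp*-KO 4, the library that alone kept the groups from parting, it was -0.74 (p = 0.00794 in the same exact test, which follows from that choice), and without any of the other 9 libraries p was 0.119 to 0.238. The ratio of the coactivator *Abhd5* to the inhibitor *G0s2* was 0.0292, 0.0270, 0.0286, 0.0616 and 0.0817 in WT 1 to 5 and 0.0386, 0.0462, 0.0685, 0.0470 and 0.0444 in those labelled *Mgp*-KO 1 to 5. The difference was 0.81 on the log2 scale in replicates 1 to 3, -0.63 in replicates 4 and 5, and 0.24 over all libraries (two-sided exact permutation test, p = 0.548).

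**Figure D3:**
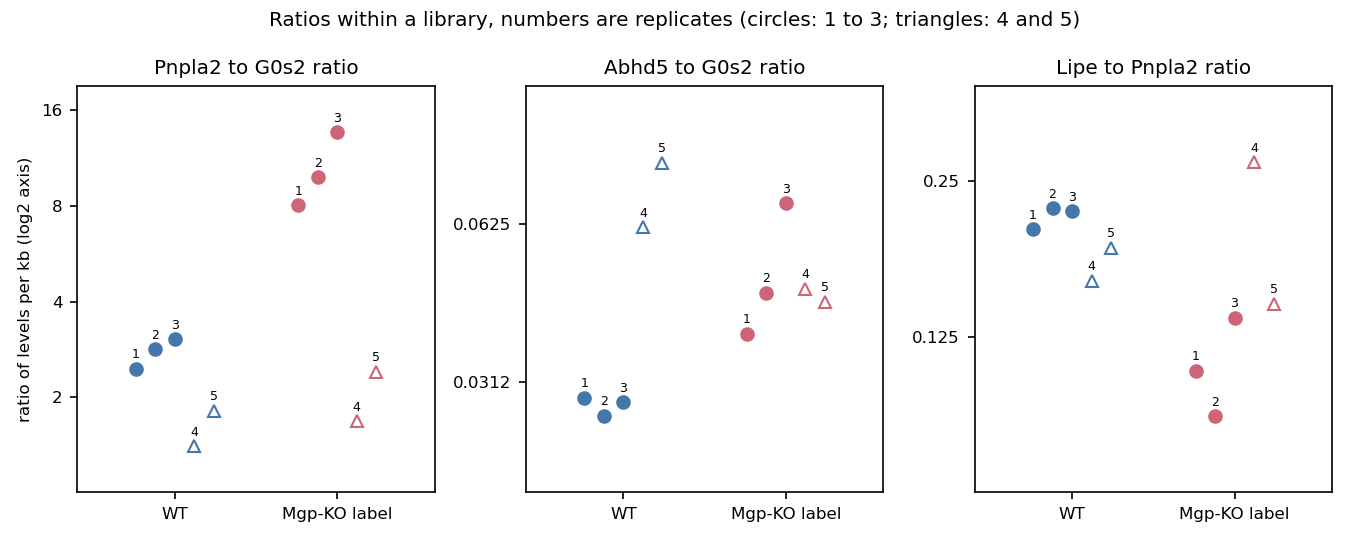
Ratios of levels per kb of exon within each library on log2 axes, with the replicate number beside each point, circles for replicates 1 to 3 and open triangles for replicates 4 and 5, WT in blue and the libraries labelled Mgp-KO in red. The red circles of the Pnpla2 to G0s2 ratio lie at 8.04 to 13.6 and the red triangles at 1.68 and 2.41, near WT.

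By normalized count per kb of exon, which allows levels of different genes to be compared, *Pnpla2* had the highest mean of the members in WT, 16669.9 ± 5715 (SD, n = 5), and was above *Ces1d* in 4 of 5 WT libraries. In WT 1 to 3 the mean was 20633 for *Pnpla2* and 6878 for *Ces1d*, and in WT 4 and 5 it was 10726 and 11624. *Ces1d* followed with 8776 ± 2804 and *G0s2* with 7142 ± 706, and these neighbours did not keep an order, since *Ces1d* was above *G0s2* in 2 of 5 WT libraries. *Pnpla3* (3424 ± 1677), *Lipe* (3392 ± 1477) and *Mgll* (2927 ± 1307) formed a middle group whose members also changed places between libraries. *Aqp7* had 1233 ± 341, *Pde3b* 523 ± 98.4, *Abhd5* 316 ± 148 and *Ces1f* 286 ± 90.6 normalized counts per kb. In all 5 WT libraries *Mgll* was above *Aqp7*, *Aqp7* above *Pde3b* and *Pde3b* above *Abhd5*, while *Abhd5* was above *Ces1f* in 3. The lipase *Pnpla2* thus had a level far above that of its coactivator. Of the summed level of the 10 genes per kb, *Pnpla2* made up 43.1% to 45.8% in WT 1 to 3 and 61.5% to 68.0% in *Mgp*-KO 1 to 3. The share was 25.1% and 26.3% in WT 4 and 5, against 18.4% and 32.7% in *Mgp*-KO 4 and 5.

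**Figure D4:**
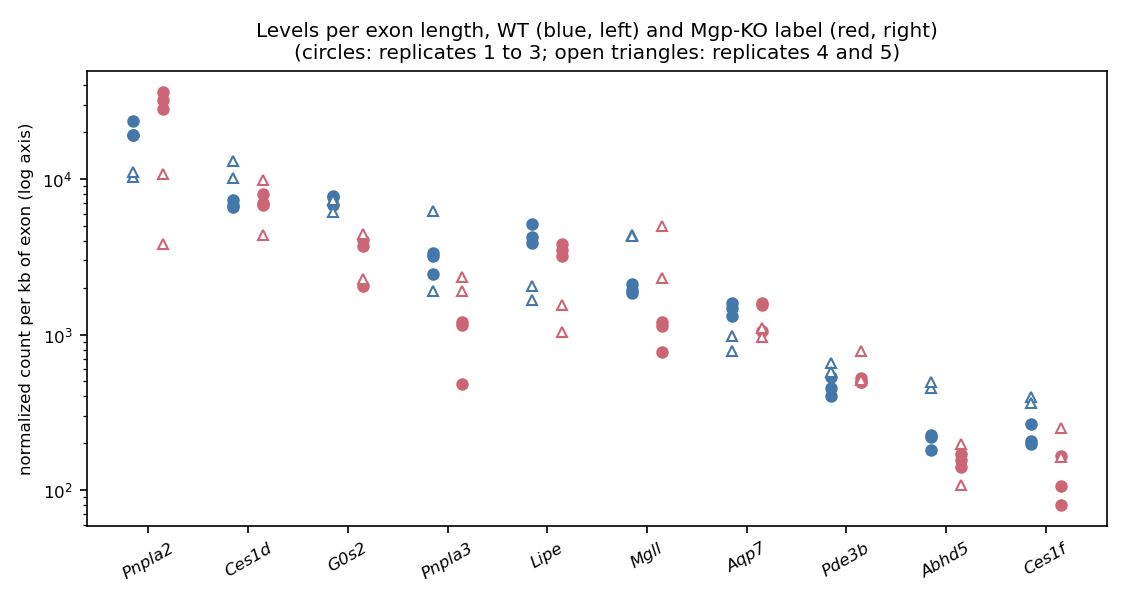
Normalized count per kb of exon (vertical log axis) for the 10 genes in order of their WT mean, with WT libraries in blue on the left and the libraries labelled Mgp-KO in red on the right of each gene, circles for replicates 1 to 3 and open triangles for replicates 4 and 5. The levels span from a WT mean of 16669.9 for Pnpla2 to 286 for Ces1f.

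The rest of the pathway was read from 5 lists. With the set term in limma, where 1.54% of tested genes were called lower and 0.824% higher, calls in the lists were all on the lower side. Of the 15 tested other lipases and paralogs 2 fell: *Ddhd2*, a phospholipase and triglyceride lipase, from 3053 ± 946 to 1222 ± 231 (SD, n = 5 each, log2 fold change -1.29, adjusted p = 0.0104 in limma), and *Dagla*, a diglyceride lipase, from 925 ± 386 to 436 ± 264 (-1.21, adjusted p = 0.0208). Of 11 tested lipid droplet proteins 1 fell, the droplet coat protein *Plin2*, from 7586 ± 3154 to 2601 ± 1128 (-1.58, adjusted p = 0.0162 in limma). Of 7 tested genes of glycerol handling 1 fell, the mitochondrial glycerol-3-phosphate dehydrogenase *Gpd2*, from 15513 ± 1883 to 8035 ± 1249 (-0.96, adjusted p = 0.0160 in limma). The medians of these lists were -0.13, -0.25 and -0.70, beside 0.03 over all tested genes.

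Of 36 tested genes of cyclic AMP and insulin control 5 fell with the set term, and their median was -0.25. *Adrb3*, the adrenergic receptor through which noradrenaline drives lipolysis in mouse fat, fell from 2343 ± 647 to 527 ± 354 (SD, n = 5 each, log2 fold change -2.37, adjusted p = 0.0163 in limma). *Ptger3*, a prostaglandin receptor that lowers cyclic AMP, fell from 549.8 ± 237 to 153 ± 130 (-2.28, adjusted p = 0.0330), and the phosphodiesterase *Pde4d* from 1815 ± 421 to 1046 ± 396 (-0.84, adjusted p = 0.0429). *Irs1*, an adaptor of the insulin receptor, fell from 1084 ± 289 to 605 ± 107 (-0.82, adjusted p = 0.0399). The soluble adenylyl cyclase gene *Adcy10* was low, with 84.2 ± 95.6 in WT and 4.26 ± 7.57 in the libraries labelled *Mgp*-KO (-4.29, adjusted p = 0.0139 in limma), a size that depends on the pseudocount. Genes that raise and genes that lower cyclic AMP were thus both among those that fell. Of 13 transcription factors known to act on lipase genes 1 fell, the liver X receptor gene *Nr1h3*, from 944 ± 157 to 630.0 ± 48.3 (-0.57, adjusted p = 0.0431 in limma), and the median of the list was -0.10. Without the set term the 10 genes named from these lists had adjusted p-values from 0.0518 (*Ddhd2*) to 0.346 (*Dagla*) in limma.

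**Figure D5:**
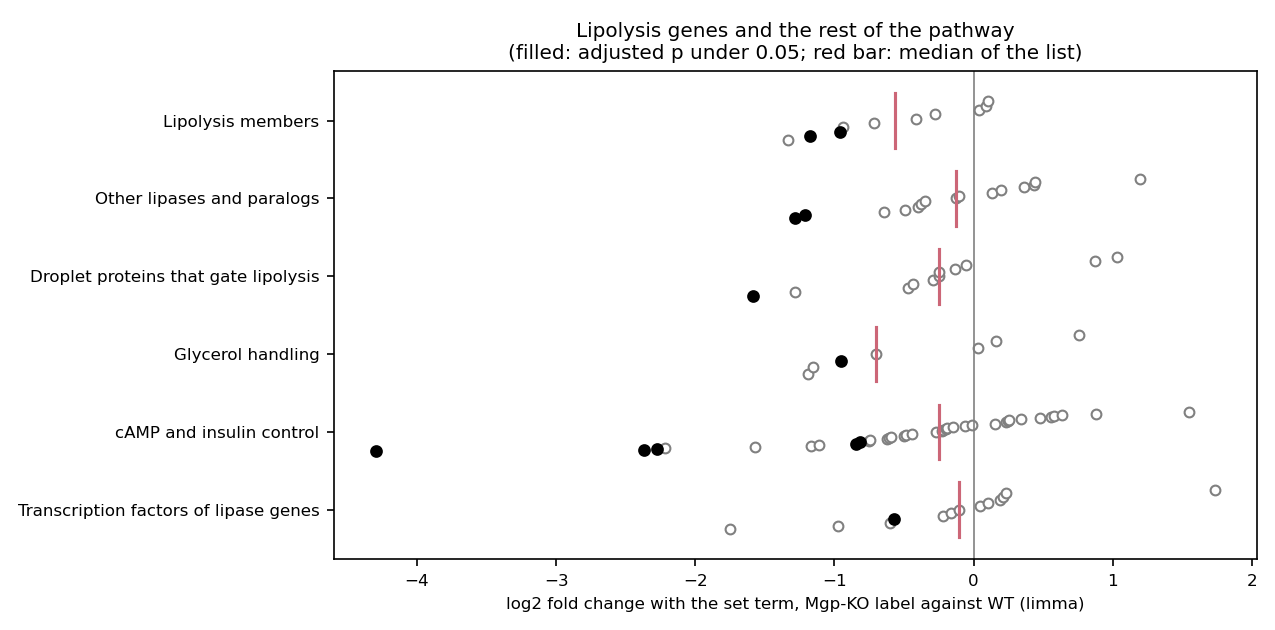
Log2 fold change with the set term in limma, libraries labelled Mgp-KO against WT, on the horizontal axis for the 10 lipolysis genes and the tested genes of 5 lists of the pathway, one point per gene, filled where the adjusted p was under 0.05, with a red bar at the median. The filled points, 2 of them lipolysis genes, all lie left of 0.

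Markers of cell types moved with some of these values. The 10 brown adipocyte markers were all listed and none was at 0 reads in any library, so the labelled tissue was present. Their summed normalized count was 213440 to 227330 in WT 1 to 3 and 154960 to 183940 in *Mgp*-KO 1 to 3, and 396510 to 407770 against 198460 to 291200 in replicates 4 and 5. This sum rests largely on *Fabp4* and *Ucp1*. In replicates 1 to 3 *Fabp4* overlapped (87326 to 101060 in WT, 93254 to 98553 in *Mgp*-KO), and *Ucp1* was 38421 to 46191 against 2201 to 11904. *Adipoq* and *Cidec* overlapped there, and *Pparg* and *Zic1* were higher in *Mgp*-KO 1 to 3. Of these 10 markers 8 had a log2 fold change below 0 and 2 were called lower with the set term in limma. The 5 endothelial markers, all with a log2 fold change above 0, had a sum of 13901 to 15541 in WT and 15201 to 18998 in *Mgp*-KO for replicates 1 to 3, and 13553 to 19615 against 20401 to 34117 in replicates 4 and 5. The sum of 5 macrophage markers was 1411 to 1735 against 1193 to 1672 in replicates 1 to 3, and 969 to 1144 against 1299 to 1531 in the later replicates. For 5 progenitor markers it was 3180 to 3708 against 3657 to 5047, and 4582 to 5382 against 6254 to 10962. In replicates 4 and 5 the sums of these 3 lists did not overlap between the groups. With 2 libraries a group, an exact permutation test cannot give a p under 0.333 for such a separation. The sums also rest on their most abundant genes. Of the progenitor markers 3 of 5 had a log2 fold change below 0, with a median of -0.30, and the sum was mostly *Dcn* (4215.5 and 3577 in WT 4 and 5, 9156 and 5090.2 in *Mgp*-KO 4 and 5), while *Pi16* was at 204 and 133 against 89.0 and 80.9. Of the macrophage markers 2 of 5 were below 0, with a median of 0.017. The sum of 5 white adipocyte markers (12207 to 41161 and 21589 to 34512) overlapped between the groups. The sum of 5 skeletal muscle markers was 25818 in *Mgp*-KO 2 and 27747 in *Mgp*-KO 5, against 32.8 to 254 in the other 3 libraries of that label and 35.2 to 4989 in WT. *Mgp*-KO 2 also had the lowest counts of *Pnpla3* and *Mgll*, and without it their log2 fold changes over all libraries were -0.99 and -0.44. The sum of 4 listed liver markers was 170 in *Mgp*-KO 4 and 0 to 8.79 in the other 9 libraries, with *Alb* at 104 in *Mgp*-KO 4 and at 0 in *Mgp*-KO 1, 2, 3 and 5. In *Mgp*-KO 4 the fat cell gene *Adipoq* had a normalized count of 4675, the lowest of all libraries. Among the libraries of replicates 4 and 5, *Mgp*-KO 4 was also the lowest for *Fabp4* (149140, next 188210 in *Mgp*-KO 5) and *Ucp1* (12319, next 15641 in *Mgp*-KO 5). The same held for *Cidea*, *Plin1*, *Cidec* and *Pparg*, and not for *Dio2*, *Zic1* and *Prdm16*. The part of these markers in the values of the lipolysis genes was not tested.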

How the data were processed

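The authors aligned 50-base single reads to mm10 with STAR and its gene counting, and divided each library's counts by its DESeq2 size factor, so the deposited values are a signal per gene, the normalized count. Annotation release and strand setting are not given in the sources used here. Each value was a whole number of reads times a constant of its library (within 0.01 reads), which gave back 9253793 to 22252260 reads per library. Floors and read counts cover counting error only.

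Limma 3.58.1 in R 4.3.3 (lmFit, eBayes with trend) was run on log2(normalized count + 1) of the 13714 genes with a mean of at least 10, without a block, with Benjamini-Hochberg adjustment over these genes and a threshold of 0.05. Fold changes on this scale understate the change of low genes. Single ratios were tested with two-sided exact permutation tests, and so were the members, without adjustment. Alternatives were other pseudocounts, filters and scalings, a set term, a replicate block, each set alone, libraries left out, and edgeR 4.0.16 and DESeq2 1.42.0 on recovered reads. On a single simulated draw per scenario, with known changes, limma and edgeR held the share of false calls under the threshold and DESeq2 with the set term did not. The draws held no outlying library and none whose reads went against its label. They cannot decide which calls in these data are false.

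Named are all 10 members, *Mgp*, and from each list the genes past the threshold over all libraries or with the set term, at most 5 in each direction. *Xist*, markers with values and the 5 genes under the other observations are beyond this rule. The members, lists, sets and tests were chosen with earlier results of these data known. Coordinates and exon lengths are from GENCODE on GRCm38, and promoters from RefSeq on GRCm38.p6. *Ces3a* and *Gyk* were not found by these symbols. The study's other experiments were not analysed here.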

Additional observations from a re-analysis of the deposited data

Results flagged for a closer look

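Dixon's ratio, the gap of the highest or lowest library to its neighbour over the range of its group, was computed for 26 groups of 5 libraries (each member and ratio in each genotype), and 2 exceeded the critical value of 0.71. Chance alone flags about 1 group in 20. The normalized count of *Pde3b* in the library labelled *Mgp*-KO 4 was 7187, with a ratio of 0.902 against the other 4 libraries of its label. The *Abhd5* to *G0s2* ratio in the library labelled *Mgp*-KO 3 was 0.0685, with a ratio of gap to range of 0.718.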

How the results depend on the processing

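Across 29 settings per member, 249 of the member values kept their direction and side of the threshold, 24 newly passed it and 17 changed sign. *G0s2*, *Ces1f*, *Pnpla3*, *Mgll* and *Abhd5* were below 0 in all 29 settings, *G0s2* from -1.30 to -1.02, and passed in 8, 7, 3, 3 and 2 of them. *Pnpla2* turned to -0.74 within replicates 4 and 5, was 1.09 without *Mgp*-KO 4 and 5 and WT 2, 0.58 after quantile normalization and 0.41 in DESeq2, and ran from -0.19 to 0.62 with each library left out. *Lipe* was 0.28 without *Mgp*-KO 4 and 5 and WT 2. That choice kept *Mgp*-KO libraries of replicates 1 to 3 only, against WT libraries of both sets, so its values mix genotype with set. *Ces1d* was 0.078 within replicates 1 to 3 and 0.069 in DESeq2 there. *Pde3b* was -0.017 without *Mgp*-KO 4 and 5 and WT 2, and ran from -0.023 (without *Mgp*-KO 4) to 0.19 with each library left out. *Aqp7* was -0.082 within replicates 1 to 3, -0.073 in DESeq2 there, and -0.11 to 0.15 with each library left out.

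Of the members, 0 passed in limma over all libraries. Within replicates 1 to 3 it was 3 in limma and 5 in DESeq2 (*Pnpla2*, higher, *Pnpla3*, *Mgll*, *G0s2* and *Ces1f*, where 10% of tested genes passed), with the set term 2 in limma, 2 in edgeR and 4 in DESeq2, and 4 in limma with the set term without *Mgp*-KO 4. DESeq2 without a term gave 1, and with each library left out it was 0 in limma. The cause was not tested. Of all tested genes 9 passed in limma, 29 with a pseudocount of 10, 1 without a filter, 15 at a mean of at least 50, 34 after quantile normalization, 324 with the set term, 486 within replicates 1 to 3, 0 within replicates 4 and 5 (855 unadjusted), 97 without *Mgp*-KO 4 and 5 and WT 2, 678 with the set term without *Mgp*-KO 4, 3 in edgeR, 341 in edgeR with the set term, 371 in DESeq2, 1196 in DESeq2 with the set term and 1377 in DESeq2 within replicates 1 to 3. With each library left out it was 0 to 93, and 93 without *Mgp*-KO 4 and 34 without WT 4. No scaling moved the median of all genes by over 0.1.

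The genotype effect differed between the sets for 1 gene, *Mgp*, and for 3 genes without *Mgp*-KO 4. The *Pnpla2* to *G0s2* difference was 2.29 (exact permutation p = 0.0286) without *Mgp*-KO 4 and 5 and WT 2, and 0.93 to 1.68 with each library left out (p = 0.0317 to 0.222 in the exact test). The *Lipe* to *Pnpla2* difference was 0.20 within replicates 4 and 5, -0.80 without *Mgp*-KO 4 and 5 and WT 2 (exact permutation p = 0.0286), and -0.74 to -0.34 with each library left out (p = 0.00794 to 0.238 in the exact test). For both ratios the values without *Mgp*-KO 4 and 5 and WT 2 mix genotype with set. The *Abhd5* to *G0s2* difference was -0.63 within replicates 4 and 5.

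With the replicate number as a block, 2 members (*G0s2* and *Ces1f*) and 270 genes passed in limma, and 1 member (*Ces1f*) and 222 genes in edgeR. Across genes, libraries of the same number deviated together from the group means with a correlation of 0.527, 0.0559, 0.327, 0.523 and 0.514 for numbers 1 to 5, and 3 of 5 libraries labelled *Mgp*-KO correlated best with the WT library of their own number. After the set means were also subtracted these were 0.0417, -0.202, -0.398, 0.223 and 0.223. The methods speak of 5 pairs of mice, but neither they nor the labels tie a replicate number to a pair, so the libraries were not treated as paired. Replicates 4 and 5 held 9253793 to 13281873 reads, fewer than replicates 1 to 3, and 2 libraries a group leave few degrees of freedom there.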

Other observations

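Of the 82 tested genes of the pathway lists, the 10 members aside, 13 (15.9%) had groups that did not overlap over all 10 libraries, 12 on the lower and 1 on the higher side, against 3.5% of all tested genes. With the set term in limma 8 of the 13 passed. The other 5 did not, and they were chosen here after their values were seen, with each adjusted p from limma with the set term. *Plin3*, a lipid droplet coat protein, was on the higher side, with a normalized count of 1951 ± 243 in WT and 3716 ± 1222 in the libraries labelled *Mgp*-KO (SD, n = 5 each, log2 fold change 0.87, adjusted p = 0.0583 in limma). *Gpd1*, the cytosolic glycerol-3-phosphate dehydrogenase, was on the lower side, with 110220 ± 20419 and 50505 ± 12751 (-1.16, adjusted p = 0.0583 in limma). *Prkar2b*, the regulatory subunit of protein kinase A that prevails in fat, had 21250 ± 5506 and 10072 ± 4394 (-1.17, adjusted p = 0.0815 in limma), and the subunit *Prkar1a* 3540.1 ± 419 and 3024 ± 138 (-0.22, adjusted p = 0.348 in limma). The lactate receptor *Hcar1*, which restrains lipolysis, had 1208 ± 359 and 321 ± 183 (-2.22, adjusted p = 0.0600 in limma).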
